A study of Rattus norvegicus with 12 samples.

Results

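Genes of antibacterial and mucosal defence were followed across the semilunar valves and the proximal aorta of newborn and adult rats. The 10 genes were Reg3b, Reg3g, Lbp, Dmbt1, Obp3, Vnn1, Il1a, Lcn2, S100a8 and S100a9. Every probe set whose only annotated gene symbol was 1 of these 10 was taken, which gave 12 of the 31099 probe sets on the array. Obp3 and Il1a had 2 probe sets each and the other genes had 1, and all 12 passed the filter on low signals. The genes were picked with results of these data in view, so their values and differences are given as a description. Calls of single genes in the fit of all probe sets are named further on, but after such a choice they support nothing.

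The RNA of Wistar rats was read on 12 arrays of short probes, 3 arrays in each of 4 groups. Adult valve and neonatal valve RNA came from the aortic and pulmonary semilunar valves together, the flaps that stop blood from flowing back into the heart. Adult aorta and neonatal aorta RNA came from the proximal part of the vessel. Neonatal tissue was taken in the first 24 h of life, the adult animals are labelled male, no adult age is given in the labels, and no group is labelled with a treatment. Values are signals, the brightness of a probe set on a linear scale, and each array had been scaled to the same trimmed mean. Differences are in log2, where each unit is a factor of 2, with the standard error (SE) of a fit that used all 12 arrays. A gene was called where the adjusted p of that fit was under 0.05.

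The labels of 6 arrays contradict each other. The arrays titled adult aorta are described as neonatal valve and the reverse, and the groups here follow the titles and source names. Igf2, a growth factor of fetal and newborn tissue, read 184 to 376 on adult valve and 339 to 879 on adult aorta arrays, against 6189 to 8898 on neonatal valve and 17222 to 20768 on neonatal aorta arrays. Acta2, the actin of smooth muscle, read 134 to 2123 on adult valve and 589 to 713 on neonatal valve arrays, against 3506 to 32958 on adult aorta and 6889.9 to 11154 on neonatal aorta arrays. Nfatc1, a transcription factor of valve endothelium, read 970.1 to 1819 on adult valve and 632 to 803 on neonatal valve arrays, against 294 to 862 on adult aorta and 473 to 539 on neonatal aorta arrays. Both genes were looked up after the data had been seen.

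Xist, the RNA that coats the silenced X chromosome of female cells, read 12355 to 18362 on adult valve and 10998 to 15809 on neonatal valve arrays, against 15.9 to 25.2 on adult aorta and 5.08 to 297 on neonatal aorta arrays. Y-linked Eif2s3y read at most 8.91 on adult valve and 134 on neonatal valve arrays, against at least 1379 on adult aorta and 1924 on neonatal aorta arrays. The adult valve libraries therefore go against their label of male, and in any comparison of valve with aorta sex and tissue cannot be told apart. Beta-actin's 3' end over its 5' end is higher where RNA is broken or its copying incomplete. The ratio was 10.65 to 13.99 on adult valve and 7.24 to 8.84 on neonatal valve arrays, against 1.40 to 2.59 on the 6 aorta arrays. It thus differed between valve and aorta, and without overlap between adult and neonatal valve. The part of RNA quality in those comparisons was not tested. Control RNAs missing from 2 neonatal aorta arrays still read 2.52 to 54.6 there, and signals in that range are close to those of an absent RNA. No label says whether the arrays within a group stem from different animals, and a p-value here thus measures only the spread between these samples.

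These genes belong to the first line of defence at body surfaces and in blood. Epithelium of gut and airway secretes lectins and scavenger proteins that bind bacteria, liver and fat release proteins that carry bacterial lipid or small molecules, and neutrophils carry metal-binding proteins that starve microbes. Several of them are switched on by cytokines of the interleukin-1, interleukin-6 and interleukin-22 families acting through NF-kappaB, STAT and C/EBP factors. In bulk tissue, fewer cells of a type and less RNA per cell cannot be told apart.

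Reg3b and Reg3g were the pair of genes that followed each other most closely, and RefSeq places them on chromosome 4 of the GRCr8 assembly with 2 protein-coding genes, Reg3a and Reg1a, between them. Promoter sequence was matched for 6 of the 10 genes. The 250 bases before the start of transcription are shown for this pair, at chr4:112419526-112419775 on the plus strand for Reg3b and at chr4:112484739-112484988 on the minus strand for Reg3g, each 5′ to 3′ in the direction of the gene. Capitals mark matches to the searched motifs: TATAAA for the TATA box, TTCNNNGAA for STAT, TTGCNNAA for C/EBP, GGNNTTTCC and the longer published consensus for NF-kappaB, on both strands.
Reg3b: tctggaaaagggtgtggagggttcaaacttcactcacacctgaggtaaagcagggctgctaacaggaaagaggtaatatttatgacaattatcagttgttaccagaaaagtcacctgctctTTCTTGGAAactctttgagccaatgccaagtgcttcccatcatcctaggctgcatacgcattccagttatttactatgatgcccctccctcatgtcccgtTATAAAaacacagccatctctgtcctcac
Reg3g: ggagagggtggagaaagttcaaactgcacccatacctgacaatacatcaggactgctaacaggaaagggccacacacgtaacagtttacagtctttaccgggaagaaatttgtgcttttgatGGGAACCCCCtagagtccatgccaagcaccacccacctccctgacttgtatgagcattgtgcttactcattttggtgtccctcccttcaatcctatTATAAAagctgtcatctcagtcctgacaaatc
The windows of Reg3b and Reg3g were identical at 63.4% of aligned columns, against 40.3% to 47.4% for the other pairs among the 6 genes. Both hold TATAAA, with its first base 29 bases before the start in Reg3b and 32 in Reg3g, as do 12.9% of 33469 RefSeq promoters of this length. The windows of Obp3, Il1a and S100a9 hold it as well. Reg3b also holds TTCNNNGAA with its first base 129 bases before the start, a motif found in 7.67% of promoters. The C/EBP motif (9.22% of promoters) was matched in Obp3 and Lcn2, and the NF-kappaB consensus (6.33% of promoters) in Reg3g, 128 bases before the start, and in Lcn2. GGNNTTTCC (5.19% of promoters) was in none of the 6 windows, and no match overlapped another motif. A match is only a run of letters, and no match says nothing about the factor.

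**Figure D1:**
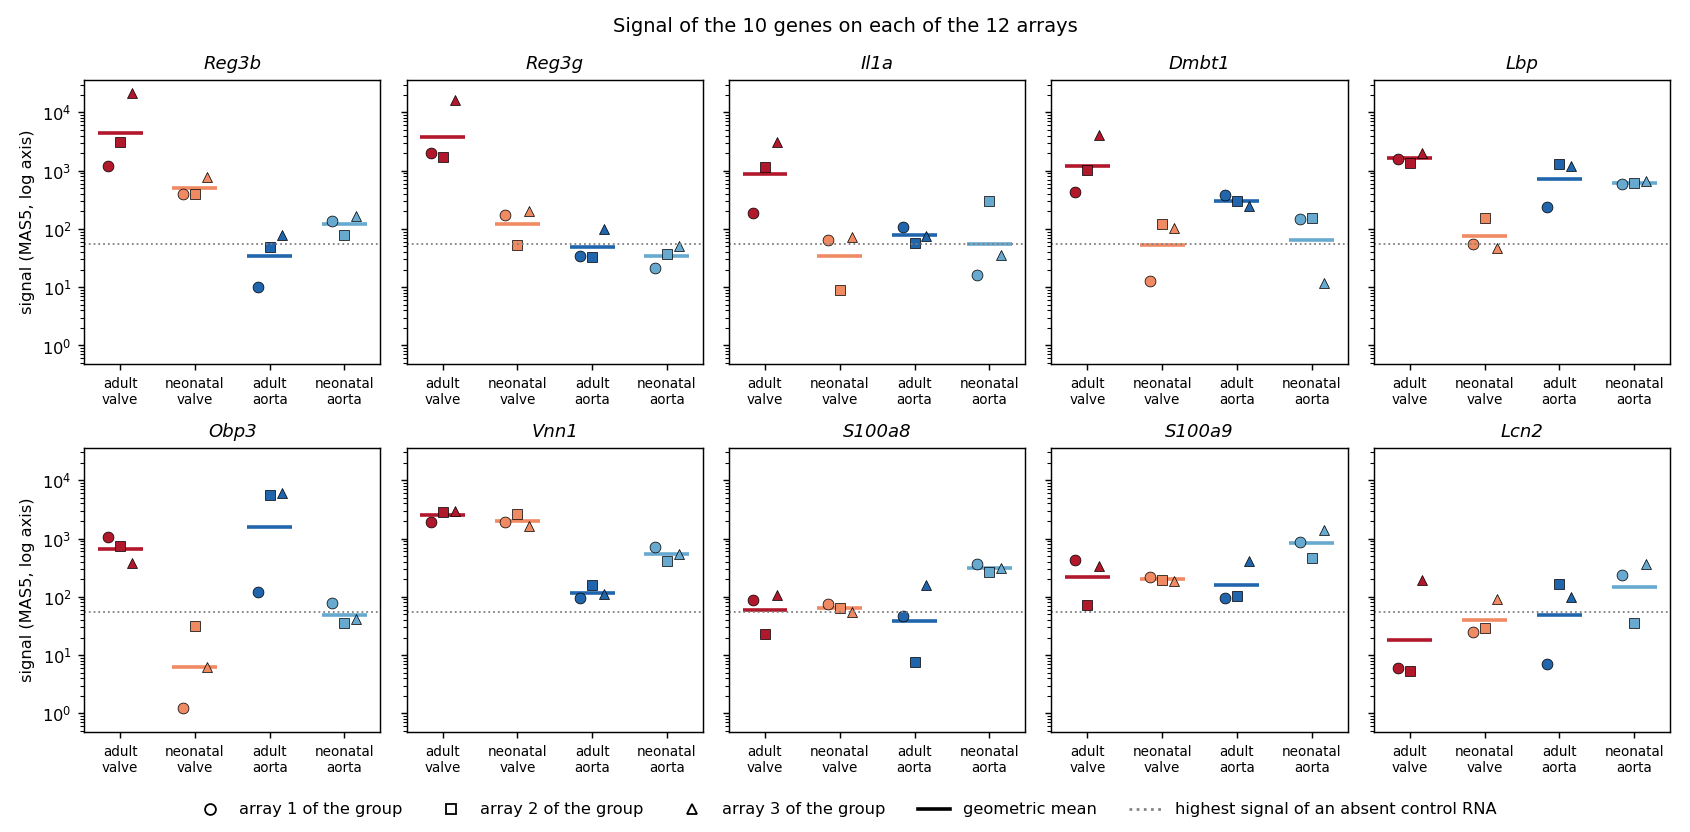
Signal of each gene on each of the 12 arrays (log axis), with groups on the horizontal axis from adult valve to neonatal aorta. Symbols stand for the 3 arrays of a group, bars for geometric means and the dotted line for 54.6, the highest signal of a control RNA that was absent. On adult valve array 3, Reg3b reached 21764 and Reg3g 16539.9.

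Reg3b encodes a secreted C-type lectin that binds bacteria, made in quantity by inflamed gut and pancreas. Its signal was 1221, 3074 and 21764 on adult valve arrays 1, 2 and 3, against 404, 402 and 791 on the neonatal valve arrays, again in order of array number as in all lists of 3 values that follow. It was 10.1, 49.7 and 79.4 on adult aorta arrays, against 135, 80.1 and 169 on neonatal aorta arrays. The 4 groups did not overlap and ranked adult valve, neonatal valve, neonatal aorta, adult aorta. The difference between adult valve and adult aorta was 6.99 ± 0.96 (SE) in log2, and between neonatal valve and neonatal aorta 2.04 ± 0.96. By age, the difference was 3.10 ± 0.96 in valve and -1.84 ± 0.96 in aorta. Adult aorta arrays 1 and 2 were in the range of absent control RNAs, so the sizes against adult aorta, and the order of the aorta groups, are not exact. The mean of adult valve leaned on array 3. Without it the difference between adult valve and neonatal valve was 1.94, and that between adult valve and adult aorta 5.83.

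Reg3g encodes the sister lectin, which in mice binds the peptidoglycan of Gram-positive bacteria and keeps them away from the gut wall. It read 1994, 1725 and 16539.9 on adult valve arrays, against 171, 52.7 and 203 on neonatal valve arrays. On adult aorta arrays it read 34.6, 33.2 and 99.3, against 20.9, 37.1 and 50.6 on neonatal aorta arrays. The lowest adult valve array stood above every other group, neonatal valve stood just above neonatal aorta, and the aorta groups, mostly within the range of absent control RNAs, overlapped. The difference between adult and neonatal valve was 4.97 ± 0.85, and it was 3.92 without adult valve array 3. The difference between adult valve and adult aorta was 6.31 ± 0.85, and 5.26 without that array, sizes that are not exact since adult aorta arrays 1 and 2 were in that range. In aorta the difference by age was 0.51 ± 0.85. The other Reg genes on the array were dim: Reg1a read 46.8 to 708 over all arrays, with its highest value also on adult valve array 3, and Reg3a read 1.04 to 79.6.

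Lbp encodes the lipopolysaccharide-binding protein of blood, which hands bacterial lipopolysaccharide to CD14 and the Toll-like receptor 4 complex. Its signal was 1607, 1376 and 1977 on adult valve arrays, against 54.6, 156 and 47.9 on neonatal valve arrays. It was 236, 1291 and 1203 on adult aorta arrays, against 596, 603 and 660.4 on neonatal aorta arrays. Neonatal valve was the low group, below all others, and adult valve the high one, while adult and neonatal aorta overlapped because adult aorta array 1 fell below and arrays 2 and 3 above the newborn vessel. The difference by age was 4.46 ± 0.60 in valve and 0.21 ± 0.60 in aorta. Between tissues it was -3.06 ± 0.60 in newborns and 1.19 ± 0.60 in adults. Leaving out adult aorta array 1 moved the adult aorta value against neonatal aorta to 1.01 and the adult valve value against adult aorta to 0.39.

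Dmbt1 encodes a large scavenger receptor glycoprotein of saliva, airway and gut mucus that binds and clumps bacteria. It read 426, 1005 and 4093 on adult valve arrays, against 12.6, 119 and 103 on neonatal valve arrays. It read 385, 303 and 246 on adult aorta arrays, against 146, 152 and 11.9 on neonatal aorta arrays. Adult arrays were above neonatal arrays in both tissues, adult valve was above adult aorta, and the neonatal groups overlapped. The difference by age was 4.49 ± 1.13 in valve and 2.25 ± 1.13 in aorta, and that between adult valve and adult aorta 1.98 ± 1.13. Without adult valve array 3 the last was 1.10 and the valve difference by age 3.61. Neonatal valve array 1 and neonatal aorta array 3 were in the range of absent control RNAs, so the sizes by age are not exact. Without neonatal valve array 1 the valve difference by age was 3.44. Without neonatal aorta array 3 the aorta difference by age was 1.04.

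Il1a encodes interleukin-1 alpha, a cytokine that epithelial and other cells hold ready and release when damaged. The probe set with the higher mean read 191, 1177 and 3158 on adult valve arrays, against 65.0, 8.78 and 71.9 on neonatal valve arrays. It read 108, 56.8 and 75.5 on adult aorta arrays, against 16.2, 303 and 35.3 on neonatal aorta arrays. Adult valve was above neonatal valve and adult aorta on every array but spread over a wide range, and the other groups overlapped. The difference between adult and neonatal valve was 4.69 ± 1.23, and between adult valve and adult aorta 3.52 ± 1.23. The second Il1a probe set read 32.7, 114 and 189 on adult valve arrays, against 29.4, 26.8 and 30.9 on neonatal valve arrays. It read 190.3, 117 and 115 on adult aorta arrays, against 78.4, 302 and 87.1 on neonatal aorta arrays. It gave 1.62 ± 0.68 by age in valve but -0.62 between adult valve and adult aorta, so the probe sets disagreed in sign there. Between newborn tissues it was lower in valve on every array, at -2.13 ± 0.68, with neonatal valve values in the range of absent control RNAs, while the first probe set gave -0.69 ± 1.23 with groups that overlapped. Their correlation over the 12 arrays was 0.51.

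Obp3 encodes an odorant-binding lipocalin close to the alpha-2u globulins, carriers of small volatile molecules. Its probe set with the higher mean read 1049, 734 and 388 on adult valve arrays, against 1.22, 31.9 and 6.19 on neonatal valve arrays. It read 121, 5612 and 6031 on adult aorta arrays, against 77.7, 34.9 and 42.1 on neonatal aorta arrays. Adult arrays stood above newborn arrays in both tissues, and neonatal valve below neonatal aorta, with most newborn values in the range of absent control RNAs. The difference by age was 6.75 ± 1.43 in valve and 5.05 ± 1.43 in aorta, sizes that are not exact for that reason. The second probe set gave 6.68 ± 1.18 and 5.29 ± 1.18, and the correlation between both was 0.98. This gene has near-identical relatives, its probe sets may bind RNA of more than 1 of them, and the values are uncertain in that respect.

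Adult aorta array 1 lay apart from arrays 2 and 3 for Obp3. Without it the adult aorta difference by age was 6.91, and that between adult valve and adult aorta was -3.12, against -1.26 ± 1.43 with all arrays. The 5 adipocyte markers on the array summed to 3658 on adult aorta array 1, 60962 on array 2 and 17009 on array 3, against 21501 to 41364 on neonatal aorta arrays, where Obp3 stayed under 78. The 9 liver markers summed to 7160 on adult aorta array 2 and to 431 to 1152 on every other array. The part of these cells in the Obp3 values was not tested.

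Vnn1 encodes vanin 1, an enzyme on the cell surface that cuts pantetheine into pantothenate, the vitamin from which coenzyme A is made, and cysteamine. Its signal was 1917, 2897 and 2965 on adult valve arrays, against 1948, 2587 and 1615 on neonatal valve arrays. It was 93.9, 158 and 112 on adult aorta arrays, against 708, 407 and 533 on neonatal aorta arrays. It was the steadiest of the 10 genes: valve arrays were above aorta arrays at both ages, the valve groups overlapped, and adult aorta was below neonatal aorta. Adult valve exceeded adult aorta by 4.43 ± 0.30, a 21.5-fold difference, and neonatal valve exceeded neonatal aorta by 1.91 ± 0.30, or 3.76-fold. Adult aorta was 4.53-fold lower than neonatal aorta, at -2.18 ± 0.30. In valve the difference by age was 0.34 ± 0.30.

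S100a8 and S100a9 encode the subunits of calprotectin, which binds zinc and manganese and makes up much of the soluble protein of neutrophils. RefSeq lists no protein-coding gene between them. S100a9 read 424, 73.0 and 335 on adult valve arrays, against 217, 195 and 188 on neonatal valve arrays. It read 94.5, 103 and 417 on adult aorta arrays, against 856, 469 and 1418 on neonatal aorta arrays. Neonatal aorta was the high group, above adult aorta and neonatal valve on every array, and the valve groups overlapped. The difference was -2.38 ± 0.71 between adult and neonatal aorta, -2.05 ± 0.71 between neonatal valve and neonatal aorta, and 0.13 ± 0.71 between adult and neonatal valve.

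S100a8 was also highest in neonatal aorta. It read 88.2, 22.6 and 109 on adult valve arrays, against 74.6, 63.8 and 54.4 on neonatal valve arrays. It read 47.6, 7.68 and 160.2 on adult aorta arrays, against 372, 269 and 307 on neonatal aorta arrays. The difference between adult and neonatal aorta was -3.01 ± 0.94 and that between neonatal valve and neonatal aorta -2.30 ± 0.94. Adult aorta arrays 1 and 2 were in the range of absent control RNAs, and without array 2 the aorta difference was -1.84. S100a8 and S100a9 had a correlation of 0.88 over the 12 arrays.

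Lcn2 encodes lipocalin 2, which takes up bacterial siderophores and so withholds iron. It read 5.91, 5.36 and 198 on adult valve arrays, against 24.9, 29.0 and 90.0 on neonatal valve arrays. It read 6.94, 164 and 98.1 on adult aorta arrays, against 238, 34.9 and 367 on neonatal aorta arrays. All groups overlapped, and 6 of the 12 values were within the range of absent control RNAs. Its differences ran from -1.85 ± 1.58 between neonatal valve and neonatal aorta to -1.13 ± 1.58 between adult and neonatal valve. Adult valve arrays 1 and 2 were in that range and array 3 was above it.

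Markers of neutrophils were near or below the level of absent control RNAs on most arrays. Of 16 listed, 11 were on the array, and their summed signal was 440 to 1567 on adult valve, 340 to 523 on neonatal valve, 564 to 697 on adult aorta and 556 to 1002 on neonatal aorta arrays. The defining granule genes Camp and Mmp8 were at most 19.3 and 51.5 on any array, including the neonatal aorta arrays on which S100a8 and S100a9 were highest. Itgam, an integrin of neutrophils and macrophages, read 57.9, 123 and 147 on neonatal aorta arrays and at most 42.9 on all others, so it was highest in the same group as S100a8 and S100a9. The defensin gene Np4 read 16.2, 79.0 and 188 on neonatal aorta arrays and at most 54.6 elsewhere. Cxcr2, of the same list, went the other way in aorta. It read 15.2, 15.9 and 48.6 on neonatal aorta arrays, against 203, 55.3 and 150 on adult aorta arrays. The part of neutrophils in the S100a8 and S100a9 values was not tested. The highest sum, on adult valve array 3, held 1083 of Selp, a gene of endothelium. All the sums include this gene and are thus not a level of neutrophils alone.

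Adult valve array 3 differed from its group in more than these genes. Reg3b, Reg3g, Dmbt1 and Lcn2 were at least 2 in log2 above both other adult valve arrays there, Lcn2 over values in the range of absent control RNAs, as were 122 of 10411 genes (1.17%). Red blood cell markers, a list added after the data had been seen, had a median signal of 4408 on that array, against 258 and 61.3 on adult valve arrays 1 and 2 and 53.2 to 375 on the arrays of the other groups. Without that array, Reg3g was still called in both adult valve comparisons and Reg3b against adult aorta, which describes the fit alone. The part of red blood cells in the Reg3 values was not tested on any array.

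**Figure D2:**
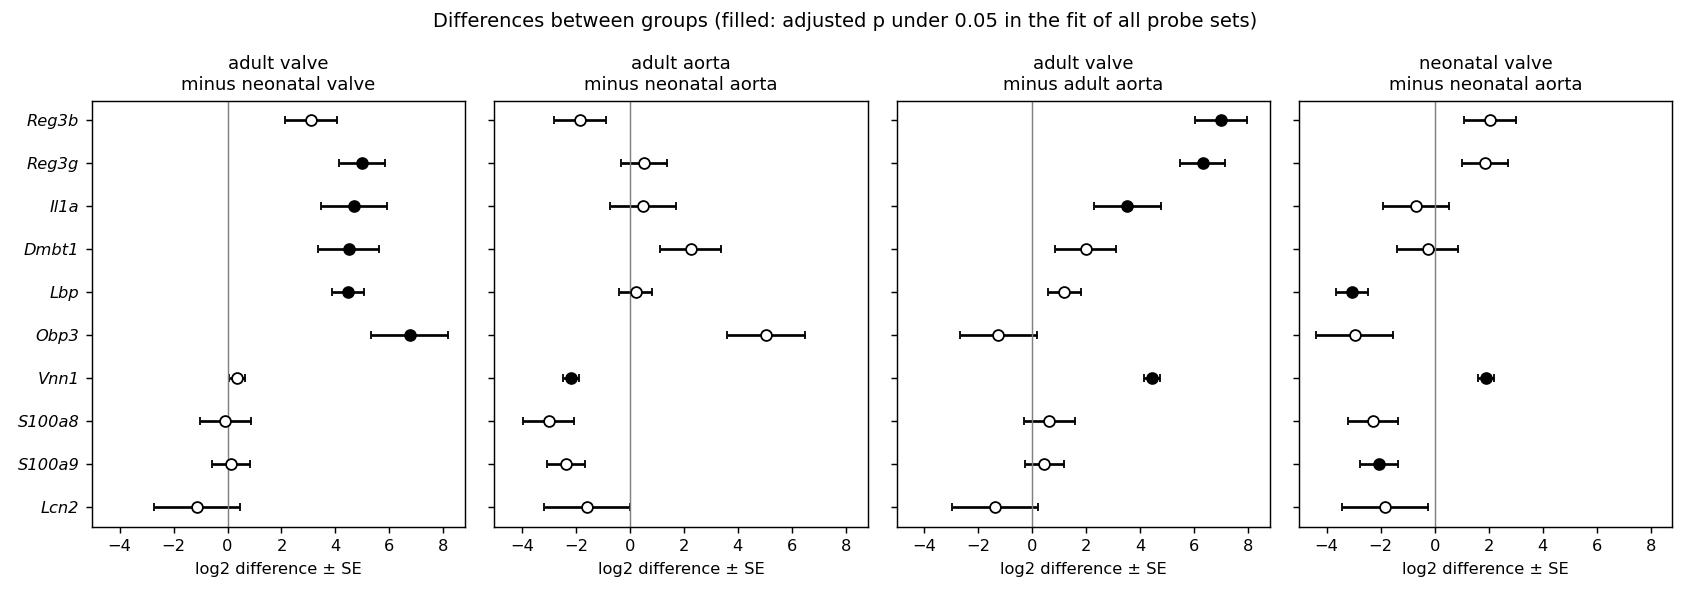
Difference in log2 of each gene in 4 comparisons of groups (horizontal axis), with bars for the standard error. Filled points had an adjusted p under 0.05 in the fit of all probe sets. Reg3b and Reg3g lie furthest to the right between adult valve and adult aorta, at 6.99 and 6.31, sizes that are not exact because adult aorta arrays 1 and 2 were in the range of absent control RNAs for both.

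Set side by side, 5 of the 10 genes were called higher in adult valve than in neonatal valve (Reg3g, Lbp, Dmbt1, Obp3 and Il1a) and none lower. Over all genes 4.15% were called higher in this comparison and 5.99% lower, and 9.21% of all probe sets were called. In 6 of the 10, Reg3b included, every adult valve array was above every neonatal valve array, which held for 15.2% of all genes, and in none were the groups apart the other way, as they were for 20.5%. The median of the 10 differences was 3.78, against -0.05 over all genes. These counts follow from how the genes were picked and support nothing. Without adult valve array 3, Reg3g, Lbp and Obp3 were still called and Dmbt1 and Il1a were not. The Obp3 call was lost without adult valve array 1, neonatal valve array 3 or neonatal valve array 1, and the difference without the last was 5.57.

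In aorta the picture by age differed from gene to gene. Vnn1 was called lower in adult aorta, and of the other genes none was called by its probe set with the higher mean, where 6% of all genes were called lower and 1.69% higher (7.31% of probe sets in all). The second Obp3 probe set was called higher in adult aorta. Dmbt1 and Obp3 lay above neonatal aorta on every adult array, as did 10.2% of all genes, and Reg3b, Vnn1, S100a8 and S100a9 lay below, as did 21.4%. The median was -0.69, against -0.11 over all genes.

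Between adult tissues Reg3b, Reg3g, Vnn1 and Il1a were called higher in valve and none lower, where 17.2% of all genes were called higher and 15.8% lower (37.1% of probe sets in all). For 6 of the 10 genes the adult valve arrays were all above the adult aorta arrays, as for 21.2% of all genes, and for none all below, as for 19.5%. The median was 1.58, against -0.01 over all genes. Without adult valve array 3, Il1a was not called there. Between newborn tissues Vnn1 was called higher in valve, and Lbp and S100a9 lower, again by the probe set with the higher mean, where 12.3% of genes were called higher and 15% lower (32.6% of probe sets in all). The second Il1a probe set was also called lower in neonatal valve. The S100a9 call was lost without neonatal aorta array 1 or 3, adult aorta array 2 or any neonatal valve array. In that comparison 3 genes lay above on every array and 4 below, against 25.6% and 30.4% of all genes. The median was -1.27, against -0.06 over all genes.

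Subtracting the age difference of aorta from that of valve gave a value above 0 for all 10 genes, with a median of 2.72 against 0.06 over all genes. It was 4.95 ± 1.36 for Reg3b, 4.46 ± 1.20 for Reg3g, 4.25 ± 0.85 for Lbp, 4.22 ± 1.74 for Il1a, 2.93 ± 1.32 for S100a8, 2.52 ± 0.42 for Vnn1 and 2.50 ± 1.00 for S100a9. For Dmbt1 it was 2.23 ± 1.605, for Obp3 1.70 ± 2.03 and for Lcn2 0.47 ± 2.24. None of the 10 was called on this measure by limma (7 had an unadjusted p under 0.05), and 0.0593% of probe sets and 0.0576% of genes were called at all. The shared sign and these counts follow from how the genes were picked and support nothing. Obp3 dropped to -0.16 without adult aorta array 1 and to -0.39 with 32 added to each signal, and Lcn2 to -1.25 without adult valve array 3.

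Genes of the same pathways and families were then examined through 11 lists chosen by function, with earlier results of these data known. Of the 211 genes listed, 95 were tested. In adult valve against neonatal valve 21 of the 95 rose and none fell (22.1%, against 10.1% of all genes called in either direction), with a median difference of 0.59 against -0.05 over all genes. In adult aorta against neonatal aorta 3 rose and 1 fell (4.21%, against 7.69%), with a median of 0.09 against -0.11. The difference between the age differences was called by limma for none of the 95, with 27 at an unadjusted p under 0.05. Without adult valve array 3, 17 rose in valve by age and none fell.

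**Figure D3:**
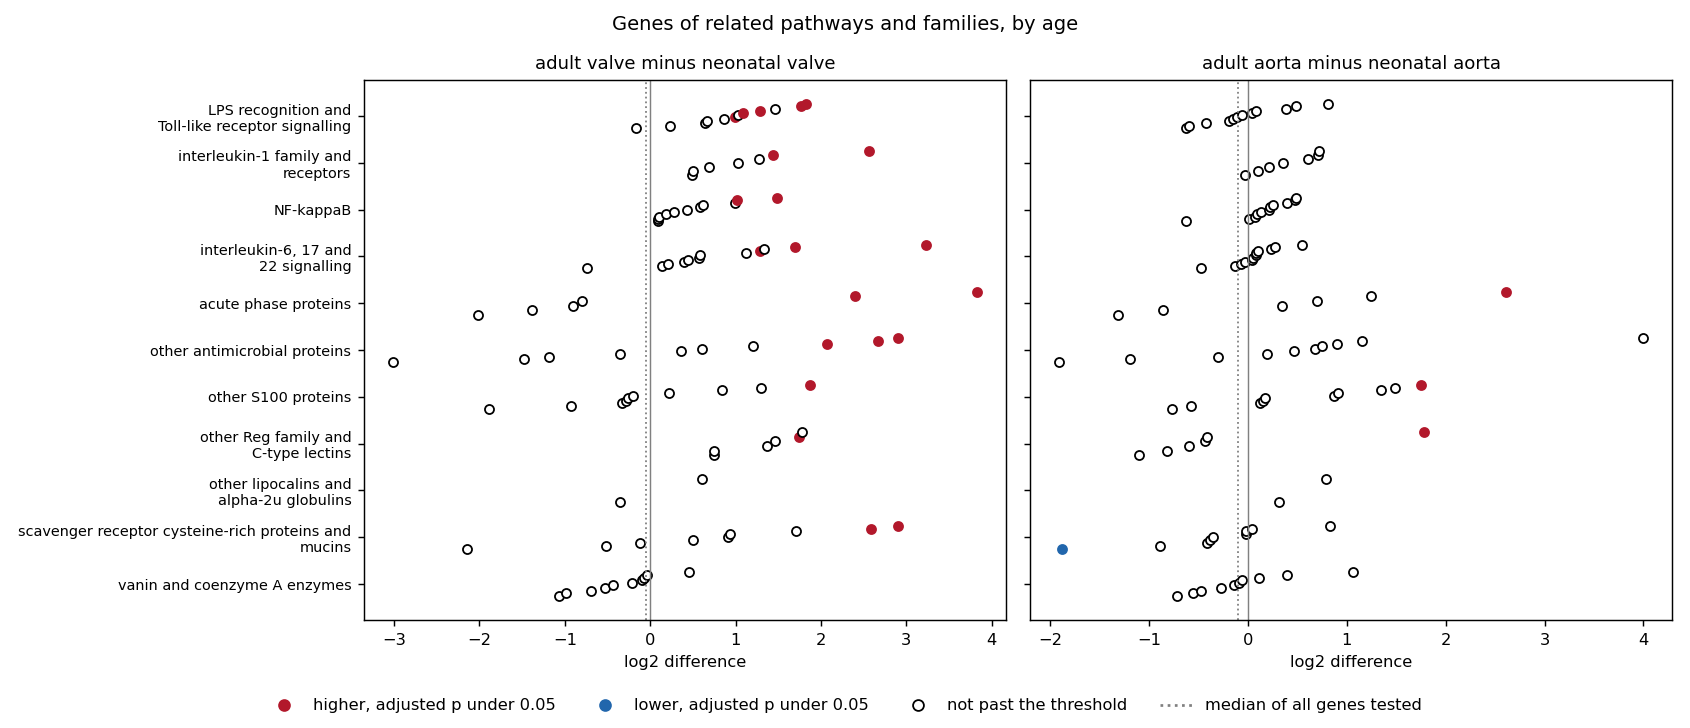
Difference by age in log2 (horizontal axis) of each tested gene of the 11 lists, in valve on the left and in aorta on the right. Red points rose and blue points fell at an adjusted p under 0.05, open points did not pass, and the dotted line is the median of all genes. In valve 21 of 95 points are red and none is blue.

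Of the genes that sense lipopolysaccharide and other bacterial parts, 12 of 22 were tested and 5 rose in adult valve over neonatal valve, where 4.15% of all genes were called higher. Tlr4, the receptor to which Lbp delivers its load, read 245, 474 and 491 on adult valve arrays, against 111, 127 and 103 on neonatal valve arrays. It rose by 1.76 ± 0.31 (adjusted p = 0.00656). Nod1, a sensor of peptidoglycan inside the cell, rose by 1.28 ± 0.25 (adjusted p = 0.0116), and Tlr7, a sensor of single-stranded RNA, by 1.82 ± 0.37 (adjusted p = 0.0144). Irak3 and Tollip, which dampen these receptors, rose by 1.09 ± 0.25 and 0.99 ± 0.27. None of the 12 was called by limma between adult and neonatal aorta (2 at an unadjusted p under 0.05), where 7.69% of all genes were.

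Between tissues the sensing genes moved both ways. In neonatal valve against neonatal aorta the adaptor genes Traf6 and Tirap were higher, at 1.51 ± 0.25 and 0.69 ± 0.21, and Nod1, Irak3 and Myd88 lower, at -1.01 ± 0.25, -0.92 ± 0.25 and -1.17 ± 0.32. In adult valve against adult aorta 5 of the 12 were higher, where 17.2% of all genes were, and none lower: Traf6 (1.27 ± 0.25), Tirap (0.84 ± 0.21), Tlr7 (1.28 ± 0.37), Ly96, the partner of Tlr4 on the cell surface (0.95 ± 0.31) and Tollip (0.80 ± 0.27).

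In the interleukin-1 family 7 of 16 genes were tested. Il33, an alarm cytokine kept in the nucleus, read 2324, 2898 and 3918 on adult valve arrays, against 475, 983 and 275 on neonatal valve arrays. It rose by 2.56 ± 0.43 (adjusted p = 0.00564). Il1r1, the receptor that interleukin-1 alpha binds, read 1480.5, 2561 and 5535 on adult valve arrays, against 1255, 740.4 and 1130.1 on neonatal valve and 596, 635 and 433 on adult aorta arrays. It rose by 1.44 ± 0.40 over neonatal valve (adjusted p = 0.0479) and was 2.33 ± 0.40 higher than in adult aorta (adjusted p = 0.0014). Pycard, an adaptor of the inflammasome, was lower in neonatal valve than in neonatal aorta, at -1.44 ± 0.41 (adjusted p = 0.0201). Il1b was not tested, with 5.17 to 197 over all arrays and its highest value on adult valve array 3.

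Of 14 NF-kappaB genes 11 were tested. Nfkbia, the inhibitor that NF-kappaB itself induces, read 997, 1217 and 1042 on adult valve arrays, against 323, 397 and 447 on neonatal valve arrays. It rose by 1.49 ± 0.21 (adjusted p = 0.00212), and the subunit gene Rela by 1.01 ± 0.21 (adjusted p = 0.0141). Between newborn tissues Nfkbia (-1.26 ± 0.21) and Nfkbib (-1.43 ± 0.40) were lower in valve and the kinase gene Chuk higher (1.17 ± 0.25). Nfkbiz, a nuclear partner of NF-kappaB, was higher in adult valve than in adult aorta by 1.85 ± 0.45 (adjusted p = 0.00872). Chuk was higher there too, by 1.14 ± 0.25, and Nfkbib lower, at -1.45 ± 0.40.

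Of 24 genes of interleukin-6, interleukin-17 and interleukin-22 signalling 12 were tested. Cebpd, a transcription factor of the acute phase response, read 707, 456 and 446 on adult valve arrays, against 166, 147 and 173 on neonatal valve arrays. It rose by 1.70 ± 0.27 (adjusted p = 0.00449). Il6st, the shared signalling receptor of the interleukin-6 family, rose by 1.29 ± 0.22 (adjusted p = 0.00666) and was 1.32 ± 0.22 above adult aorta (adjusted p = 0.00127). Stat3, which that receptor activates, was 0.64 ± 0.19 above adult aorta, and Il17ra, the receptor chain for interleukin-17, 1.09 ± 0.37, while the kinase gene Jak2 was lower, at -1.16 ± 0.31.

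Cebpb, the second acute phase factor of this family, set newborn valve apart. It read 347, 196 and 66.9 on adult valve arrays, against 21.0, 59.4 and 4.49 on neonatal valve arrays. It read 2258, 2424 and 675 on adult aorta arrays, against 1557, 1475 and 1435 on neonatal aorta arrays. Cebpb was lower in valve than in aorta at both ages, at -6.39 ± 0.86 in newborns (adjusted p = 0.000437) and -3.22 ± 0.86 in adults (adjusted p = 0.0136), and rose by 3.22 ± 0.86 with age in valve (adjusted p = 0.0412). Most neonatal valve values were within the range of absent control RNAs, so those sizes are not exact. Il6 was not tested and read at most 107 on any array.

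Acute phase proteins, which liver and some other tissues release in inflammation, had 6 of 21 genes tested. Serpina3n, a protease inhibitor, read 944, 216 and 112 on adult valve arrays, against 20.2, 17.4 and 22.7 on neonatal valve arrays. It read 127, 253 and 346 on adult aorta arrays, against 28.6, 30.8 and 55.3 on neonatal aorta arrays. It rose in both tissues from newborn values largely within the range of absent control RNAs, by 3.83 ± 0.71 in valve (adjusted p = 0.0091) and 2.61 ± 0.71 in aorta (adjusted p = 0.0484). Cp, the copper carrier ceruloplasmin, read 3298, 4448 and 3091 on adult valve arrays, against 763, 749 and 541 on neonatal valve arrays. It rose by 2.40 ± 0.45 (adjusted p = 0.00986). In adult valve against adult aorta Cp was higher, by 1.65 ± 0.45 (adjusted p = 0.0149), and Agt, the precursor of angiotensin, was lower, at -3.51 ± 0.83 (adjusted p = 0.00721). The median of the 6 differences between adult and neonatal valve was -0.85.

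Among other antimicrobial proteins 10 of 34 were tested. Rnase4 and Ang, ribonucleases of the same family, rose in adult valve over neonatal valve by 2.67 ± 0.34 (adjusted p = 0.0015) and 2.07 ± 0.39 (adjusted p = 0.00938). Both were lower in neonatal valve than in neonatal aorta, at -1.98 ± 0.34 and -1.44 ± 0.39, as was Adm, the peptide adrenomedullin, at -1.73 ± 0.59. Chi3l1, a chitinase-like lectin, read 1326, 1093 and 1129 on adult valve arrays, against 164, 191 and 126 on neonatal valve, 66.7, 162 and 208 on adult aorta and 141, 102 and 105 on neonatal aorta arrays. Adult valve alone was high, by 2.90 ± 0.38 over neonatal valve (adjusted p = 0.00161) and 3.17 ± 0.38 over adult aorta (adjusted p = 0.000214). The cathelicidin gene Camp stayed under 20 on all arrays.

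Of the S100 relatives of S100a8 and S100a9, 10 were tested. Of these 6 were lower in neonatal valve than in neonatal aorta, where 15% of all genes were lower, and 4 in adult valve than in adult aorta, where 15.8% were, and none was higher in either. S100a11 read 4068, 2966 and 3669 on adult valve arrays, against 17349, 14929 and 20110.2 on adult aorta arrays. It was lower by -2.29 ± 0.23 in adults (adjusted p = 9.83e-05) and -1.89 ± 0.23 in newborns (adjusted p = 0.000256). S100a13 was lower at -2.19 ± 0.44 and -2.43 ± 0.44, both given for adults first, and S100a6 was lower at -2.20 ± 0.48 in adults. By age, S100a4 rose in both tissues, by 1.87 ± 0.33 in valve (adjusted p = 0.00734) and 1.75 ± 0.33 in aorta (adjusted p = 0.0113).

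In the other family lists few genes passed. Among Reg genes and C-type lectins (6 of 15 tested) Clec7a, the receptor for fungal beta-glucan, rose in adult over neonatal tissue by 1.74 ± 0.44 in valve (adjusted p = 0.0338) and 1.78 ± 0.44 in aorta (adjusted p = 0.0347). Clec11a, Clec10a and Clec4a1 were lower in neonatal valve than in neonatal aorta, at -3.01 ± 0.46, -2.74 ± 0.69 and -1.06 ± 0.37, and Clec4a3 was higher in adult valve than in adult aorta at 1.70 ± 0.49. Among scavenger receptor cysteine-rich proteins and mucins (9 of 24 tested) Scara3 rose in valve with age by 2.90 ± 0.45 (adjusted p = 0.00371) and Cd163, the haemoglobin scavenger of macrophages, by 2.59 ± 0.66 (adjusted p = 0.0342), while Loxl2 fell in adult aorta at -1.88 ± 0.38 (adjusted p = 0.0142). Scara3 and Lgals3bp were lower in neonatal valve than in neonatal aorta, at -1.70 ± 0.45 and -0.92 ± 0.30.

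Neither of the 2 other lipocalins tested was called by limma in any comparison, with 2 at an unadjusted p under 0.05 between adult tissues and 1 between newborn tissues. In the list of vanin and coenzyme A enzymes, 10 of 12 genes were tested. None was called by limma between adult and neonatal valve (2 at an unadjusted p under 0.05), where 10.1% of all genes were. Pank1, a pantothenate kinase, was lower in adult valve than in adult aorta, at -2.69 ± 0.58 (adjusted p = 0.00442), as was the biotin enzyme Btd at -1.55 ± 0.38, and Pank3 was higher at 0.70 ± 0.18. Btd was also lower in neonatal valve than in neonatal aorta, at -1.28 ± 0.38.

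Over all lists, 15 of the 95 genes were higher and 10 lower in adult valve than in adult aorta (26.3%, against 33% of all genes), and 3 were higher and 23 lower in neonatal valve than in neonatal aorta (27.4%, against 27.2%). These splits depended on the scaling. With each array centred on its median, which moves all genes by 0.39 between adult and 0.33 between newborn tissues, 33 were higher and 9 lower in adult valve, and 13 higher and 14 lower in neonatal valve. Centring moved the valve comparison by age by only 0.09, with 23 higher and none lower.

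**Figure D4:**
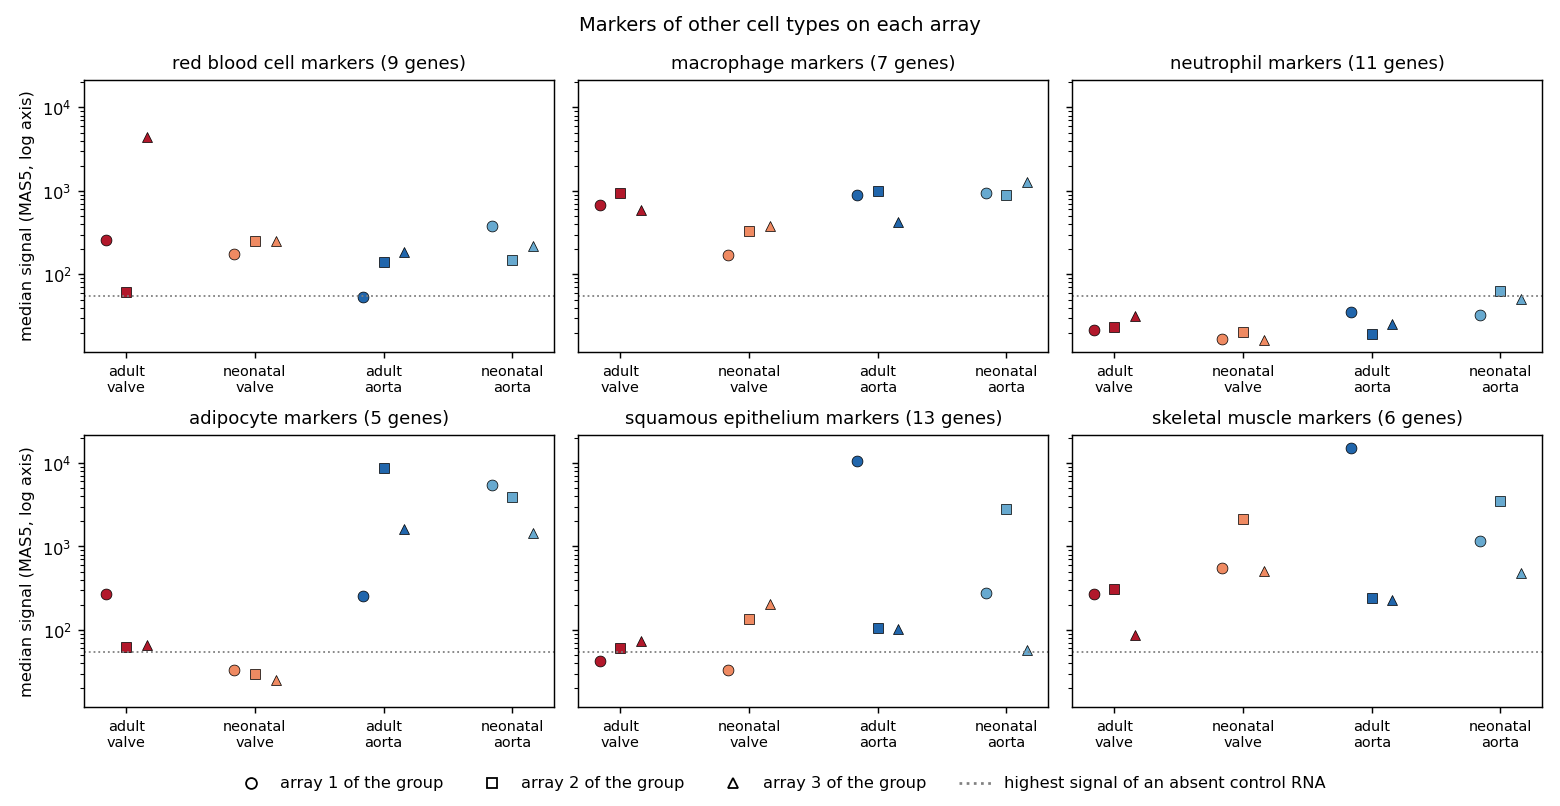
Median signal of marker genes of 6 cell types on each array (log axis), with groups on the horizontal axis from adult valve to neonatal aorta and symbols for the 3 arrays of a group. The dotted line is the highest signal of an absent control RNA. Adult valve array 3 is high for red blood cell markers (4408) and adult aorta array 1 for squamous epithelium (10554.7) and skeletal muscle (15259).

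Macrophages express many of the listed sensors. The 7 macrophage markers summed to 5169, 9281 and 4947 on adult valve arrays, against 1632 to 3255 on neonatal valve arrays, and to 2483 to 6297 on adult aorta arrays, against 6315 to 9826 on neonatal aorta arrays. Adgre1, Cd163 and Mrc1 rose in adult over neonatal valve (2.27 for Adgre1 and 1.38 for Mrc1), where 4.15% of all genes were called higher. Of the 7, 4, among them C1qb and Mrc1, were lower in neonatal valve than in neonatal aorta (-2.74 and -1.71), where 15% of all genes were. The sum of the 7 markers was lowest in neonatal valve, overlapping only adult aorta, and the signals of Lbp, Tlr4 and Nod1 were lowest in that group too. Others went the other way between newborn tissues: Traf6, Tirap and Vnn1 were called higher in neonatal valve, and Reg3b and Reg3g lay above neonatal aorta on every array. The part of macrophages in those results was not tested.

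Adult aorta array 1 and neonatal aorta array 2 carried markers of other tissues. The 13 squamous epithelium markers summed to 212354 on adult aorta array 1 and 85400 on neonatal aorta array 2, against at most 9249 elsewhere. Skeletal muscle markers summed to 114564 on adult aorta array 1, against at most 34376 elsewhere, with Acta1 at 36704. Reg3b, Lbp, Obp3 and Lcn2 were at least 2 in log2 below both other arrays of the group on adult aorta array 1, as were 352 of 10411 genes (3.38%). The Il1a probe set was highest among neonatal aorta arrays on array 2. Secretory epithelium markers, which include those of mucosa, summed to 61717 on neonatal valve array 2, against 1116 to 6488 elsewhere, and Obp3, Lbp, Dmbt1 and Vnn1 were the highest of their group there, at 31.9, 156, 119 and 2587. Reg3b, Reg3g and Il1a were the lowest of their group on that array, at 402, 52.7 and 8.78. Reg3b was nearly the same on neonatal valve array 1, at 404. The Obp3, Reg3g and Il1a values on array 2 were in the range of absent control RNAs, so their ranks there say little. The part of these tissues in the results was not tested.

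Over the 12 arrays the genes most like each of the 10 in log2 signal were found by Pearson correlation. Such a correlation follows the 4 groups and shared array quality and is given as a description. Reg3b was nearest to Gpr182, a receptor of endothelium (0.99), followed by Resf1 and Ptpn12 (0.97 each). Reg3g was nearest to the ceramidase gene Acer2, the granzyme inhibitor Serpinb9 and Eps15, a gene of endocytosis (0.95 each). Lbp followed Plpp3, a phosphatase of signalling lipids (0.98), Scara3 (0.94) and Clstn1 (0.93). Vnn1 followed the kinase gene Eif2ak4, Ap3d1 and Hand2, a transcription factor of the developing heart (0.97 each). Obp3 followed Atf5 (0.94), Fam13c and Prelp (0.93 each), and Dmbt1 followed Wbp4 (0.92), Efcab14 and Stk40 (0.90 each).

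The nearest genes of the other 4 were at 0.83 to 0.94. They were Nxpe1 (0.89), Zfp758 (0.84) and Ptprr (0.83) for Il1a, and Ddn (0.86), Trerf1 (0.86) and Sars2 (0.85) for Lcn2. They were Mapk4 (0.94), Nrgn (0.92) and Rnaseh2c (0.86) for S100a8, and Lama5 (0.90), Smim27 (0.89) and Zdhhc8 (0.88) for S100a9. Among the 10 genes themselves, Reg3b and Reg3g correlated at 0.89, Reg3b and Vnn1 at 0.86, Lbp and Obp3 at 0.85 and Reg3g and Il1a at 0.79.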

How the data were processed

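RNA of adult and neonatal rat valve and aorta was hybridised to 12 arrays. Each deposited value is an intensity, 1 linear signal per probe set, computed by the authors in Affymetrix Expression Console by MAS5, per the submitters' processing notes. No version is given in the sources used here. Trimmed means (2% off each end) were 500.1 to 500.2. The genes and lists described here were chosen with earlier results of these data known.

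The 57 control probe sets were left out, signals under 1 (on 12 to 185 probe sets per array) were raised to 1, and log2 was taken. The filter kept the 18552 probe sets that exceeded the median of all signals (172) on at least 3 of 12 arrays, for 10411 genes, with the brightest probe set standing for its gene. Symbols came from the platform annotation: 20826 probe sets had 1 symbol (20758 found by gene ID in the reference), 436 several and 9780 none. Groups followed the sample titles. limma 3.58.1 under R 4.3.3 fitted 4 group means to the 12 arrays, with eBayes and its intensity trend and 8 residual degrees of freedom. The p-values were two-sided, with Benjamini-Hochberg adjustment across all probe sets tested, and the fit was tested on simulated data. Precision is limited by 3 arrays per group.

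Genes named were the 10 genes with all their probe sets, up to 3 called genes per list and comparison by smallest adjusted p, the 3 genes most correlated with each of the 10, Igf2, Xist and Eif2s3y, and the 2 brightest markers of other tissues on an array that stood apart. Further genes named (Acta2, Nfatc1, dim or other called genes of a list) were chosen after their values were seen. The alternatives tried were 32 added to each signal, quantile normalization, centring on the median, no filter, a stricter filter (6 arrays), no intensity trend, the replicate number or the presence of control RNA as a block, leaving out each array, and the second probe set of Obp3 and Il1a. Promoters of 250 bases and their motif matches came from the RefSeq table for GRCr8.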

Additional observations from a re-analysis of the deposited data

How the results depend on the processing

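With 3 arrays per group, 1 array can decide a call. The 10 genes were picked with these data in view, so how often each was called describes the fit and supports nothing. Under the alternatives, 969 differences of single genes among the 10 moved by less than 1 SD between the arrays of a group, 15 moved by more, and 1 that had been called took the other sign: the second Il1a probe set gave -0.62 between adult valve and adult aorta, against 3.52. Of the 37 differences not called, 11 took the other sign under at least 1 alternative, among them S100a8 between adult tissues (-0.54, against 0.63), Il1a by age in aorta (-0.41, against 0.48) and Dmbt1 between newborn tissues (0.79, against -0.26). The calls of Vnn1 by age in aorta and between adult tissues, of Reg3b between adult tissues and of Lbp by age in valve were made under all 20 alternatives, and those of Reg3g by age in valve and between adult tissues under all 19 that could be run, since the stricter filter removed it. Dmbt1 by age in valve was called under 14 of 20, Obp3 under 16 of 19, and Il1a under 11 of 19 both there and between adult tissues. These tallies leave out the second probe sets. By its second probe set Il1a was called in neither comparison, while Obp3 was called by age in valve. Between newborn tissues S100a9 was called under 9 of 20, and Lbp and Vnn1 under 19 of 20. With the control RNA as a block, where neonatal aorta array 1 alone sets the mean of its group, Lbp gave -3.01 and Vnn1 1.51.

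Counts moved more. Between adult and neonatal aorta 1357 probe sets were called, 69 with control RNA as a block and 431 to 2485 with an array left out (2485 without adult aorta array 1, 812 without array 2, 524, 455 and 431 without neonatal aorta arrays 1, 2 and 3). The listed genes called there were 4, 2 under the stricter filter and 0 to 7 with an array left out (0 by limma without neonatal aorta array 3, with 10 at an unadjusted p under 0.05). Between adult and neonatal valve 1709 probe sets were called, 662 to 3093 with an array left out (3093 without adult aorta array 1, 951 and 1137 without adult valve arrays 1 and 3, and 662, 853 and 893 without neonatal valve arrays 1, 2 and 3), and of listed genes 21, 13 to 26 with an array left out (13 without neonatal valve array 1). Between newborn tissues 6043 probe sets were called, 1416 with control RNA as a block and 4101 to 7386 with an array left out, and of listed genes 26, 6 with that block and 13 to 35 with an array left out. Between adult tissues 6891 probe sets and 25 listed genes were called, 5692 to 7048 and 20 to 28 with an array left out, and 42 listed genes after centring. Centring turned the split by age in valve to 873 higher and 670 lower, against 742 and 967. Between newborn tissues it gave 4072 and 2381, against 2461 and 3582, and between adult tissues 5308 and 2264, against 3207 and 3684. The difference between age differences was called for 11 probe sets, 4 under the stricter filter, 7 without the intensity trend and 1 to 37 with an array left out. The cause was not tested.

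The replicate numbers did not pair the samples: among 18 pairs of arrays with the same number the correlation of deviations from the group mean was -0.31 to 0.24, over 0.1 in 3, and among 36 pairs with other numbers -0.29 to 0.39, over 0.1 in 10. With the replicate number as a block, 1 probe set was called on the difference between age differences, against 11.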

Other observations

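Adult valve array 3, on which Reg3b, Reg3g, Dmbt1 and Lcn2 were highest in their group, led its group by most in Alox15, a lipoxygenase, which read 9201 there against 228 and 9.12 on adult valve arrays 1 and 2. Myo5c, a myosin of secretory cells, read 8209.5 against 247 and 106, and Tk1, an enzyme of DNA synthesis, 3698 against 124 and 114. Among genes of red blood cells, Slc4a1 read 7793 against 294 and 61.3, and Ahsp 4408 against 258 and 23.7. These genes were picked after their values were seen.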
